A study of Mus musculus with 6 samples.

Results

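The Fc gamma receptor group comprises 6 genes of the 56636 in the deposited expression table, taken by symbol: the activating receptors Fcgr1, Fcgr3 and Fcgr4, the inhibitory receptor Fcgr2b, the common gamma chain Fcer1g and the kinase Syk. All 6 were present and all 6 passed the filter of a mean of at least 1 TPM. TPM is a transcript level per unit of length, scaled to the same total in every library. The libraries came from RAW264.7, an established mouse line of macrophage-like cells that the labels give as wild type (WT). Cells were exposed for 24 h to vehicle (3 libraries) or to an agent labelled 25-HC (3 libraries), whose full name, dose and solvent the labels do not give. All are cultures of a single line, and the labels do not say whether the 3 libraries of a group came from separate cultures. The p-values therefore reflect only how these libraries scattered, and that scatter may be technical. The series belongs to work on cholesterol homeostasis and a microRNA released by cancer cells, and the design sets cells given 25-HC against cells given vehicle.

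Fc gamma receptors bind the constant part of immunoglobulin G on antibody-coated particles. The activating alpha chains sit in the membrane with the common gamma chain, whose tyrosine motif (ITAM) is phosphorylated by Src family kinases and then recruits Syk, which starts phagocytosis and cytokine release. Fcgr2b carries an inhibitory motif (ITIM) instead, recruits the phosphatase SHIP-1 and restrains the activating receptors, so macrophages are often described by the balance between the activating and the inhibitory kind. In bulk RNA, fewer cells that express a gene and less of its RNA per cell cannot be told apart.

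On RefSeq's mouse table, Fcgr2b, Fcgr4 and Fcgr3 are consecutive protein-coding genes of chromosome 1, with Fcer1g on the same chromosome, Fcgr1 on chromosome 3 and Syk on chromosome 13. The 200 bases before the annotated start are shown for the 4 receptors, of which 3 carry the activating signal and 1 the inhibitory one. The exact letters GAGGAAG, on either strand, occur in the first 3 windows and not in that of Fcgr2b, which holds GGAANNGAAA. Whether the same factors bind these letters was not tested. Sequences are from RefSeq on build GRCm38.p6, an older build than the GRCm39 named for the deposited values, and run 5′ to 3′ on the strand of each gene. All 6 members had a promoter sequence in that table, and for Fcgr3 the second of its 2 listed starts is shown. Capitals mark matches to 5 motifs, searched on both strands after the sequences had been read: GAGGAAG (a PU.1-type site of myeloid genes), TTCNNNGAA (the GAS element bound by STAT factors), GGAANNGAAA (an ETS-IRF composite), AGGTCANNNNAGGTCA (a repeat bound by LXR) and TCACNCCAC (a sterol regulatory element). No match overlapped another in these windows.
Fcgr1, chr3:96293970-96294169, minus strand: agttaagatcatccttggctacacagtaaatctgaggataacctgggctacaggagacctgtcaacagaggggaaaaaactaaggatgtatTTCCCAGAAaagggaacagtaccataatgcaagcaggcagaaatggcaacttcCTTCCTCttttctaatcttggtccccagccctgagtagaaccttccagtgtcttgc
Fcgr3, chr1:171059395-171059594, minus strand: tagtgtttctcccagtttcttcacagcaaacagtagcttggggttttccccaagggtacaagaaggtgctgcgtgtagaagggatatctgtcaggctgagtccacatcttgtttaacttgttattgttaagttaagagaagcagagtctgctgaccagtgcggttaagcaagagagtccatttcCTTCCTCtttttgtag
Fcgr4, chr1:171018726-171018925, plus strand: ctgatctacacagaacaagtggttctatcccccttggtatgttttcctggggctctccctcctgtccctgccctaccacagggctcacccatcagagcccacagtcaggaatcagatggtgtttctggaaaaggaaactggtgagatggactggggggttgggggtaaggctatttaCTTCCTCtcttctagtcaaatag
Fcgr2b, chr1:170976072-170976271, minus strand: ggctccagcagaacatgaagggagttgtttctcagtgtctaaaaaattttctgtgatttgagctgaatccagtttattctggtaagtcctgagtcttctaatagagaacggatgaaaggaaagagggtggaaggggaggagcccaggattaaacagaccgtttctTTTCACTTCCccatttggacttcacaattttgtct

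The PU.1-type letters stood on the opposite strand (CTTCCTC as printed) in all 3 activating receptors, 56 to 50 bases before the start in Fcgr1, 16 to 10 in Fcgr3 and 23 to 17 in Fcgr4. They occur in 8.84% of 32851 mouse promoter windows of the same length. Fcgr1 also held the GAS letters, 109 to 101 bases before its start (5.49% of all windows). Fcgr2b held the ETS-IRF letters on the opposite strand, 35 to 26 bases before its start (1.84% of all windows). None of the 4 windows held the LXR repeat (0.0152% of all windows) or the sterol element (0.858%). The Fcer1g and Syk windows held no match to any of the 5. A match describes letters only, and its absence says only that those letters are not in the window.

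The vehicle libraries were uneven, which bears on every member. Vehicle 2 had 9492 genes at 1 TPM or more, against 11238 to 12005 in the other 5 libraries. Genes with Rpl or Rps symbols, mostly ribosomal proteins, took 37.95% of TPM in vehicle 2 and 28.33% in vehicle 1. In vehicle 3 and the 25-HC libraries they took 22.46% to 24.56%. Long transcripts were low in vehicle 1 and vehicle 2: for the longest sixth of genes the median log2 difference from the mean of the 25-HC libraries was -0.784 in vehicle 1, -1.63 in vehicle 2 and 0.0391 in vehicle 3. Over the 12092 genes tested, the median log2 difference between 25-HC and vehicle was 0.52, which is not subtracted below unless stated. After each library was divided by its median ratio to the others it was 0.01. Macrophage markers summed to 1721 to 2571 TPM with vehicle against 2496 to 2517 TPM under 25-HC, with Mertk listed at 0. Of the 7 that were tested, 3 were higher and 1 lower without overlap, beside 22.6% and 8.10% of all genes. B cell markers, of interest because B cells rely on Fcgr2b, summed to at most 4.23 TPM in any library. T or NK cell markers summed to 8.12 to 13.3 TPM with vehicle and 2.03 to 19 TPM under 25-HC. Mast cell markers, of interest because mast cells use the gamma chain, summed to at most 0.09 TPM.

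Fcgr2b, the inhibitory receptor, stood furthest from vehicle of the 6 members. Vehicle 1, 2 and 3 held 19.37, 4.22 and 25.51 TPM of its transcript, against 73.13, 79.08 and 78.32 TPM across the treated libraries. The lowest treated library was 2.87-fold above the highest vehicle library. The group means were 16.4 ± 11 TPM with vehicle against 76.8 ± 3.24 TPM under 25-HC (SD, n = 3 each), a 4.7-fold difference, and the treated mean was 3.01-fold above vehicle 3 alone. The log2 difference of 2.46 (SE 0.62, on log2(TPM + 1)) did not pass limma over all genes tested (adjusted p = 0.389, unadjusted 0.00657). It ranked 109th from the highest of 12092 genes, and 99th when 25-HC was set against vehicle 3 alone.

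**Figure D1:**
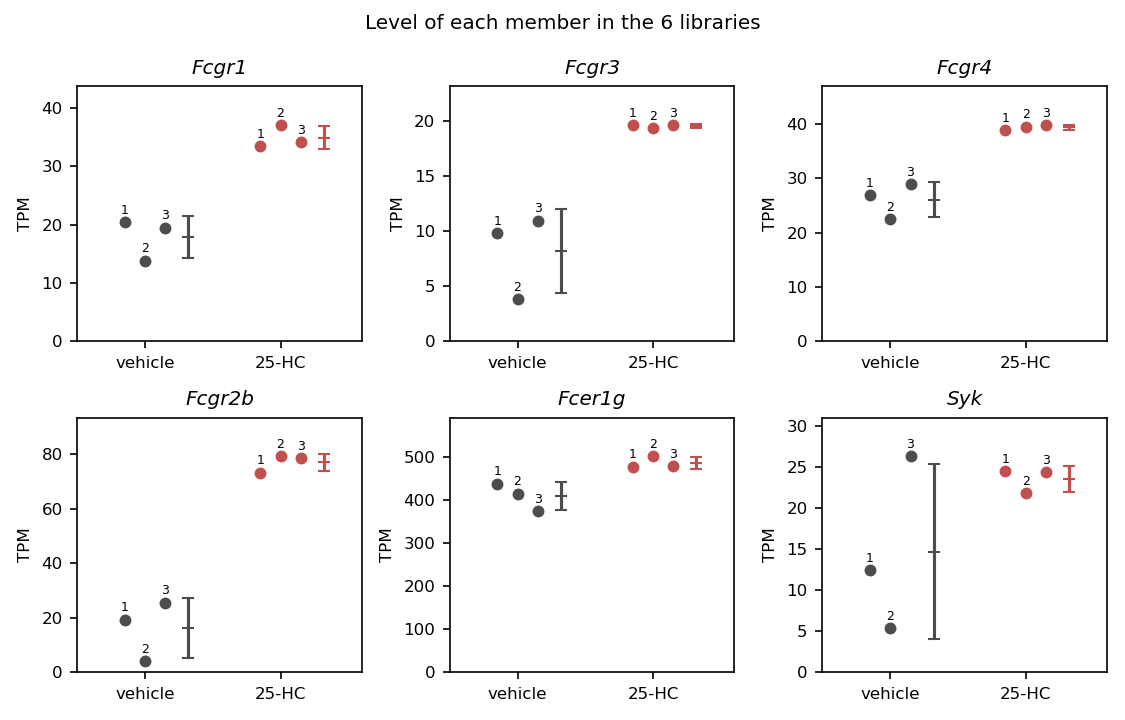
TPM of each member (vertical axis, from 0) in the 3 vehicle and 3 25-HC libraries; points are libraries, labelled by replicate number, and the bar beside them is the mean ± SD. Fcgr2b lies between 73.13 and 79.08 TPM under 25-HC and at most at 25.51 TPM in vehicle, while the Syk value of vehicle 3 (26.33 TPM) is above all treated values.

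The 3 activating alpha chains were higher in each treated library than in each vehicle library as deposited, by smaller amounts, although median-ratio rescaling brought overlap for Fcgr1 and Fcgr4 and turned Fcgr4 to -0.03 on the log2 scale. Fcgr1, the high-affinity receptor (CD64), which binds monomeric immunoglobulin G, was at 20.44, 13.79 and 19.49 TPM with vehicle against 33.49, 37.15 and 34.17 TPM under 25-HC, a 1.95-fold difference of means and 1.79-fold over vehicle 3. Fcgr3, the low-affinity receptor for immune complexes (CD16), was at 9.76, 3.80 and 10.92 TPM with vehicle against 19.62, 19.34 and 19.59 TPM under 25-HC. That was 2.39-fold between means and again 1.79-fold over vehicle 3. Fcgr4, a receptor of intermediate affinity that binds IgG2a and IgG2b, was at 26.90, 22.51 and 28.89 TPM with vehicle against 38.94, 39.58 and 39.89 TPM under 25-HC (1.51-fold, and 1.37-fold over vehicle 3). Vehicle 2 was the lowest library for all 4 receptors. The log2 differences were 0.94 for Fcgr1 (SE 0.26), 1.27 for Fcgr3 (SE 0.41) and 0.59 for Fcgr4 (SE 0.23), each with adjusted p = 0.389 by limma.

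Fcer1g, the common gamma chain, was by far the most abundant member, at 438.78, 415.87 and 375.14 TPM with vehicle against 478.84, 502.43 and 479.17 TPM under 25-HC. As deposited its groups did not overlap (they did after median-ratio rescaling, at a log2 difference of -0.38), with a 1.19-fold difference of means (0.25 on the log2 scale, SE 0.16, limma adjusted p = 0.395), and vehicle 3 was its lowest library. Syk, the kinase that docks on the phosphorylated gamma chain, was at 12.47, 5.38 and 26.33 TPM with vehicle against 24.56, 21.81 and 24.43 TPM under 25-HC. Its groups overlapped, and the treated mean was 0.896 times the value of vehicle 3 (log2 difference over all vehicle libraries 0.89, SE 0.54, adjusted p = 0.394 by limma).

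As deposited, 5 of the 6 members were higher in 25-HC without overlap and none lower, and after median-ratio rescaling only Fcgr2b and Fcgr3 were. Of all genes tested, 22.6% were higher without overlap and 8.10% lower. The median log2 difference of the members was 0.92, against 0.52 over all genes. None of the members passed the limma test, which called 0.00827% of genes higher and 0% lower (1 gene in all, with 1352 at an unadjusted p under 0.05, namely 996 higher and 356 lower). Unadjusted p was under 0.05 for the 4 receptors and not for Fcer1g or Syk.

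In each 25-HC library the order of levels ran Fcer1g, Fcgr2b, Fcgr4, Fcgr1, Syk, Fcgr3, and no neighbours in that order overlapped across the 3 libraries. In vehicle, Fcer1g was first, Fcgr4 second and Fcgr3 last in every library, while Fcgr1, Fcgr2b and Syk changed places between libraries and overlapped. Fcgr2b came below Fcgr1 in vehicle 1 and 2 and below Syk in vehicle 2 and 3, and above both in each treated library.

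The scaling of a library cancels when members are compared within it. Of the summed TPM of the 4 receptors, Fcgr2b made up 25.3%, 9.52% and 30.1% in vehicle 1, 2 and 3 and 44.3%, 45.1% and 45.5% in the 25-HC libraries. Every treated library was above every vehicle library. The share of Fcgr4 was 35.2%, 50.8% and 34.1% in vehicle and 22.6% to 23.6% in 25-HC, and that of Fcgr1 was 26.7%, 31.1% and 23% against 19.9% to 21.2%. Both were lower as shares while higher in deposited TPM. Fcgr3 kept overlapping shares, 12.8%, 8.57% and 12.9% in vehicle and 11% to 11.9% in 25-HC. The 4 receptors together were at 68.5 ± 21.4 TPM with vehicle against 171 ± 5.09 TPM under 25-HC (SD, n = 3 each), a 2.49-fold difference, and the 3 activating chains together at 52.2 ± 10.5 and 93.9 ± 2.02 TPM (1.8-fold).

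**Figure D2:**
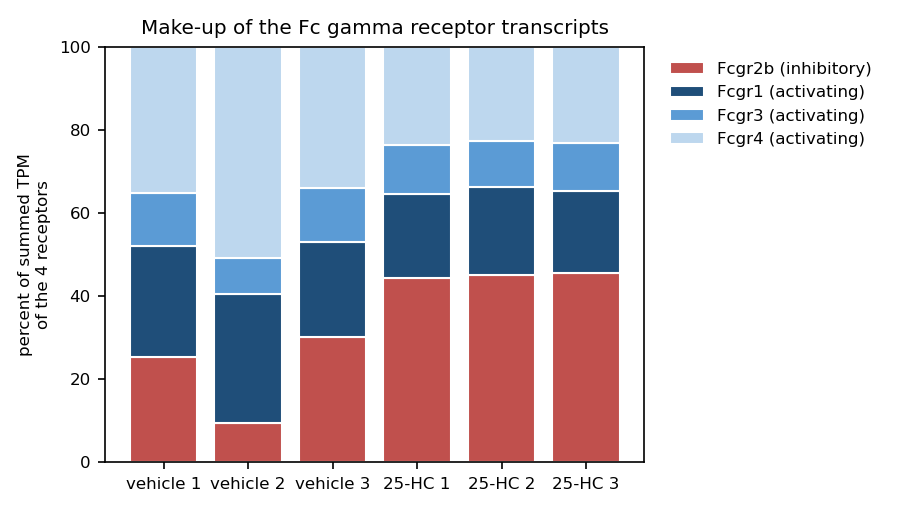
Share of each receptor in the summed TPM of the 4 Fc gamma receptors (vertical axis, percent) in each library, with the inhibitory receptor in red and the activating receptors in blue. Fcgr2b takes 44.3% to 45.5% of the bar in the treated libraries and at most 30.1% in the vehicle libraries.

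Summed activating alpha chains were 2.95, 9.5 and 2.32 times Fcgr2b in vehicle 1, 2 and 3, and 1.26, 1.21 and 1.2 times Fcgr2b in 25-HC. On the log2 scale this ratio was 2.01 ± 1.09 in vehicle and 0.29 ± 0.04 in 25-HC (SD, n = 3 each), a difference of -1.72. Fcgr3 relative to Fcgr2b was 0.504, 0.9 and 0.428 in vehicle and 0.268, 0.245 and 0.25 in 25-HC, a log2 difference of -1.19. Neither ratio overlapped between groups, and each gave p = 0.1 in a two-sided exact permutation test, the smallest that 3 libraries against 3 can give (0.133 after Benjamini-Hochberg adjustment over the 4 ratios tested). Most pairs of members likewise had ratios without overlap, also pairs without Fcgr2b such as Fcgr1 to Fcgr4 and Fcgr3 to Fcgr4. Only the ratios of Fcgr1 to Fcgr3, Fcgr1 to Syk, Fcgr4 to Syk and Fcer1g to Syk overlapped. Against vehicle 3 alone the log2 differences were -0.93 for the summed chains and -0.75 for Fcgr3. A length effect does not cancel between transcripts of unequal length, and after the length correction they were -1.34 and -0.73.

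The gamma chain exceeded the summed activating alpha chains 7.68, 10.4 and 6.33 times in vehicle and 5.2, 5.23 and 5.12 times in 25-HC. This ratio was lower in every treated library (log2 difference -0.62, exact permutation p = 0.1, adjusted 0.133). Its log2 difference was -0.29 against vehicle 3 alone, -0.25 after the length correction and -0.28 after the length and GC correction. Syk relative to Fcer1g overlapped between groups, at 0.0284, 0.0129 and 0.0702 in vehicle and 0.0434 to 0.0513 in 25-HC (log2 difference 0.71, exact permutation p = 0.4, adjusted 0.4). That difference turned to -0.54 against vehicle 3 alone and to -0.15 after the correction for transcript length.

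Set against every other gene tested within the same library, Fcgr2b was higher in each treated than in each vehicle library relative to 93.8% of 12091 genes, and lower relative to 0.0248%. The corresponding shares for a higher ratio were 62.4% for Fcgr3, 42.2% for Fcgr1, 28.4% for Fcgr4, 17% for Fcer1g and 16.9% for Syk. These shares describe the 6 libraries, and no scaling factor was applied between them. They are not free of library effects. The constant added to TPM before the log2 keeps library scale from cancelling fully, most of all for low genes. The length effect of the vehicle libraries does not cancel between genes of unequal transcript length, so it can enter these shares.

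The transcripts differ in length, and in vehicle 1 and 2 length went with level. Fcgr2b has a longest transcript of 3544 bases in GENCODE release M21, and on log2(TPM + 1) it stood at -1.93, -3.90 and -1.55 against the treated mean in vehicle 1, 2 and 3. The median gene of that sixth of lengths stood at -0.481, -1.54 and 0.0885, so the differences of Fcgr2b from it were -1.45, -2.36 and -1.64. Fcgr3, at 1347 bases in the shortest sixth, likewise lay away from the median gene of its length, by -1.11, -2.04 and -0.83. Fcgr4, at 1256 bases, differed from that gene by -0.72, -0.73 and -0.49, and Fcer1g, at 683 bases, by -0.33, -0.18 and -0.43. For Fcgr1, at 2589 bases, the differences were -0.46, 0.04 and -0.90, so its vehicle 2 value was no lower than that of the median gene of its length. Syk, at 5363 bases in the longest sixth, differed from the median gene there by -0.08, -0.32 and 0.11, and thus stayed close to other long transcripts in each vehicle library.

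**Figure D3:**
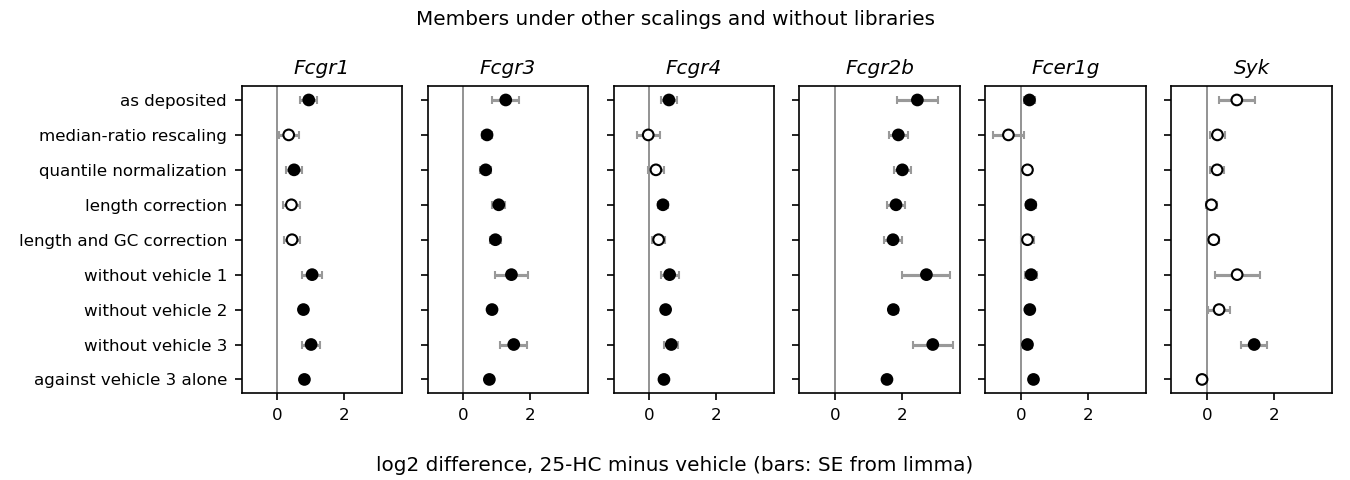
Log2 difference between 25-HC and vehicle (horizontal axis; bars are the SE from limma) for each member as deposited, under other scalings and corrections, and without vehicle libraries. Filled points mark values that did not overlap upward; Fcgr2b and Fcgr3 are filled in every setting shown, and Syk only without vehicle 3.

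Fcgr2b and Fcgr3 stayed higher without overlap under each rescaling. After median-ratio rescaling their log2 differences were 1.89 (SE 0.29, adjusted p = 0.196 by limma) and 0.71 (SE 0.16, adjusted p = 0.286), and these were the only 2 members without overlap, where 18.4% of all genes were higher and 18.1% lower without overlap. Fcgr1 was then at 0.34, Fcgr4 at -0.03 and Fcer1g at -0.38, all with overlap, so the direction of Fcgr4 and Fcer1g depends on the scaling. After quantile normalization Fcgr1 joined them (3 members, beside 18.6% of all genes). After the correction for transcript length 4 members did not overlap (17.1% of all genes higher): Fcgr2b at 1.82, Fcgr3 at 1.06, Fcgr4 at 0.41 and Fcer1g at 0.29, with Fcgr1 at 0.42 and Syk at 0.13 overlapping. After a correction for length and GC content together, chosen after seeing the data, Fcgr2b at 1.73 and Fcgr3 at 0.96 did not overlap (16.4% of all genes higher). None of the 6 members passed limma in these settings.

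Without vehicle 2 the log2 difference of Fcgr2b was 1.74 (SE 0.14, adjusted p = 0.051 by limma), that of Fcgr3 was 0.86 and that of Syk 0.36. Without vehicle 3 they were 2.92, 1.51 and 1.41, and all 6 members were then higher without overlap, beside 59.5% of all genes. Against vehicle 3 alone, the 5 other members were higher and Syk lower without overlap, beside 28.5% and 45.7% of all genes. The log2 differences were then 1.55 for Fcgr2b, 0.81 for Fcgr1, 0.78 for Fcgr3, 0.44 for Fcgr4, 0.37 for Fcer1g and -0.15 for Syk, with a median of 0.61 over the members and -0.07 over all genes. Limma passed those 5 in that setting (adjusted p = 0.0119 to 0.0348), as it did 4.52% of all genes in the higher direction. It has to assume there that the lone vehicle library varies as the treated ones do, and the vehicle libraries varied far more.

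**Figure D4:**
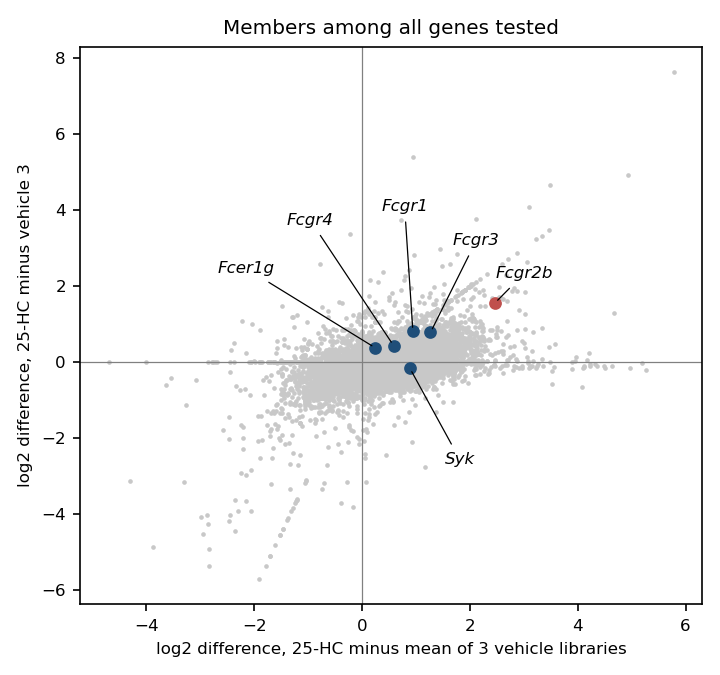
Log2 difference of each gene tested (grey points) against the mean of the 3 vehicle libraries (horizontal axis) and against vehicle 3 alone (vertical axis), with Fcgr2b in red and the other members in blue. Fcgr2b is at 2.46 and 1.55 on the axes, Syk at 0.89 and -0.15.

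Fcgr2b and Fcgr3 encode closely related extracellular parts, and reads from the shared stretches can be assigned to either gene. In GENCODE M21 transcripts, 9.58% of the 50-base words of Fcgr3 also occur in Fcgr2b, and 2.92% of those of Fcgr2b occur in Fcgr3. With 100-base words the shares were 2.54% and 0.753%. No other pair of members shared a word of either length. Neither the read length nor the handling of shared reads is given in the sources used here, so the levels of both genes carry that uncertainty. The annotated antisense gene within Fcgr2b, Gm38204, was at most at 0.23 TPM in any library.

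Closest to each member in its course over the 6 libraries, by the root mean square difference of centred log2(TPM + 1) among the 6503 genes that averaged 10 TPM or more, were the following genes. For Fcgr2b they were Evi2b (0.155) and Msmo1 (0.166). Evi2b was at 5.89, 0.56 and 8.99 TPM with vehicle against 29.24, 28.18 and 30.98 TPM under 25-HC. For Fcgr3 they were Gch1 (0.0512) and Anxa3 (0.0588), and for Fcgr1 Oasl1 (0.0585) and Slfn2 (0.0643). Fcgr4 was nearest to Npc2 (0.0456) and Eps15 (0.0524), Fcer1g to Mdp1 (0.031) and Trex1 (0.0426), and Syk to Mbtps1 (0.0403) and Arhgef7 (0.0471). The distances were largest for Fcgr2b. The measure is not scaled to the size of a gene's differences, which were also largest for Fcgr2b, so distances do not compare across members.

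The wider pathway was described from lists of kinases, adaptors, phosphatases, actin regulators and related receptors. Of 81 listed genes 80 were in the table and 64 were tested, and none passed limma in either direction (10 at an unadjusted p under 0.05). Higher without overlap were 16 of the 64, and 2 were lower, beside 22.6% and 8.10% of all genes. Their median log2 difference was 0.82, and against vehicle 3 alone it was -0.06, where that of all genes was -0.07. All lists were drawn up with earlier results of these data known.

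The median log2 difference of the membrane-proximal kinases, which phosphorylate the ITAM or act beside Syk, was 0.87. Without overlap, 1 of 6 tested genes was higher and none lower, beside 22.6% and 8.10% of all genes. Lyn, the Src family kinase that acts on both activating and inhibitory receptors, was that gene, at 25.84, 8.02 and 47.80 TPM with vehicle against 59.35, 55.53 and 59.93 TPM under 25-HC (log2 difference 1.38, SE 0.61). Btk, a Tec family kinase, overlapped, with 24.95 TPM in vehicle 3 and 23.97 to 25.67 TPM under 25-HC.

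Of 17 tested Syk adaptors and downstream enzymes, 8 were higher without overlap and none lower, beside 22.6% and 8.10% of all genes. After median-ratio rescaling 7 were higher and 1 lower, beside 18.4% and 18.1% of all genes. After the length correction 7 were higher and 2 lower, beside 17.1% and 18.7%. The list median was 1.06 as deposited, 0.32 after the length correction and 0.11 against vehicle 3 alone. Lcp2 (SLP-76), an adaptor phosphorylated by Syk, was at 20.51, 3.85 and 35.52 TPM with vehicle against 70.34, 76.81 and 69.96 TPM under 25-HC, a log2 difference of 2.23 (SE 0.73, adjusted p = 0.389 by limma) and of 1.01 against vehicle 3. Pik3cg, a catalytic subunit of phosphoinositide 3-kinase, was at 1.46, 0.17 and 4.37 TPM with vehicle against 8.62, 8.36 and 8.94 TPM under 25-HC. Card9, an adaptor that links Syk to NF-kB, was near even, at 45.17, 57.27 and 40.09 TPM with vehicle against 52.60 to 53.85 TPM under 25-HC.

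None of the 8 inhibitory phosphatases and adaptors was separated in either direction (median 0.59), beside 22.6% of all genes higher and 8.10% lower. Inpp5d, which encodes SHIP-1, the phosphatase bound by Fcgr2b, was at 18.97, 5.15 and 63.73 TPM with vehicle against 60.88, 48.22 and 49.98 TPM under 25-HC. Its vehicle 3 value was above all treated values. Ptpn11, the phosphatase SHP-2, was at 8.52, 6.10 and 25.37 TPM with vehicle against 19.53 to 24.19 TPM under 25-HC. Dok3, an adaptor of inhibitory signals, was at 117 ± 5.82 TPM with vehicle against 113 ± 4.28 TPM under 25-HC (SD, n = 3 each). Of the 8 genes 2 were lower without overlap once libraries were rescaled by median ratios, beside 18.1% of all genes, and 0 were separated in either direction after the length correction.

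For the actin machinery of phagocytosis, 4 of 20 genes were higher and 1 lower without overlap, beside 22.6% and 8.10% of all genes. The list median was 0.90, and -0.08 against vehicle 3 alone, where that of all genes was -0.07. Elmo1 and Dock2, which together activate Rac, were both higher: Elmo1 was at 3.64, 0.51 and 10.00 TPM with vehicle against 14.56 to 16.39 TPM under 25-HC, and Dock2 at 3.45, 0.93 and 6.11 TPM and 10.95 to 13.42 TPM. Rac2, the Rac GTPase of blood cells, overlapped, at 597.79, 289.91 and 517.69 TPM with vehicle against 411.43 to 433.57 TPM under 25-HC. Crk, an adaptor upstream of Rac, was the lower gene, at 37.56 to 44.16 TPM with vehicle against 30.61 to 34.65 TPM under 25-HC, and was picked out after its values were seen.

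**Figure D5:**
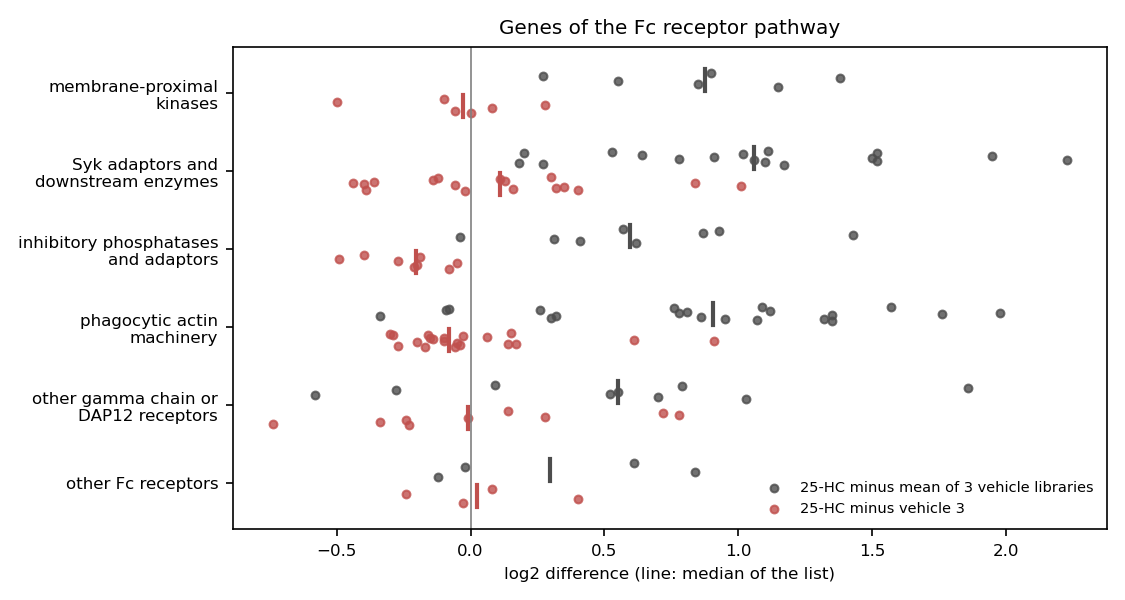
Log2 difference of the tested genes of each pathway list (horizontal axis), against the mean of the 3 vehicle libraries (grey) and against vehicle 3 alone (red); each point is a gene and the line is the median of the list. The medians run from 0.29 to 1.06 against all vehicle libraries and from -0.20 to 0.11 against vehicle 3.

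The list of other receptors that signal through the gamma chain or the related adaptor DAP12 also held the adaptors Tyrobp and Hcst. Of its 9 tested genes 2 were higher and 1 lower without overlap, beside 22.6% and 8.10% of all genes. The list median was 0.55, against 0.52 over all genes. Tyrobp, which encodes DAP12, overlapped at 853 ± 77.3 TPM with vehicle against 904 ± 20.2 TPM under 25-HC (SD, n = 3 each). Trem2, a lipid receptor paired with DAP12, was at 227.63, 195.23 and 224.61 TPM with vehicle against 368.28 to 376.60 TPM under 25-HC, and overlapped after median-ratio rescaling. Cd300lb, an activating receptor of the CD300 family, overlapped, at 30.17, 6.54 and 55.63 TPM with vehicle against 47.08 to 47.70 TPM under 25-HC. Clec4d, a C-type lectin picked out after its values were seen, was lower in each treated library, at 356.59, 339.45 and 273.09 TPM with vehicle against 210.39, 218.80 and 215.48 TPM under 25-HC. Fcer1a, the alpha chain of the high-affinity receptor for immunoglobulin E, was listed at 0 in 5 libraries and at 0.09 TPM in the other.

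Among other Fc receptors 4 of 10 were tested. Fcrl1, an Fc receptor-like gene best known from B cells, was at 23.90, 14.06 and 29.37 TPM with vehicle against 39.58, 38.51 and 39.38 TPM under 25-HC (0.84 on the log2 scale, SE 0.32, limma adjusted p = 0.389), with overlap after median-ratio rescaling. Fcgrt, the neonatal receptor that recycles immunoglobulin G, was near even, at 14.27, 12.82 and 12.26 TPM with vehicle against 11.22, 11.28 and 13.50 TPM under 25-HC.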

How the data were processed

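Expression was used as the authors deposited it, in TPM for each gene in 6 libraries (11 empty columns were ignored). HISAT2, RSEM, StringTie and build GRCm39 are named, with no versions or order, per the submitters' processing notes. TPM keeps no read counts, so the depth is unknown and no interval from counting is given. Per the labels' protocols, libraries came from 1 µg of total RNA with a TruSeq kit. Groups and replicate numbers came from sample titles.

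The 12092 genes that averaged 1 TPM or more entered limma 3.58.1 (R 4.3.3) as log2(TPM + 1) (mean-variance trend, two-sided, all 6 libraries, no block), with Benjamini-Hochberg adjustment over all of them and a threshold of 0.05. This scale understates changes of low genes, and folds are ratios of mean TPM. The 4 ratios within libraries had exact permutation tests (scipy 1.17.1). Length and GC effects used each gene's longest GENCODE M21 transcript (92.1% of genes tested) and were subtracted as a loess trend per library (span 0.75, degree 2). The limma fit was tried on simulated data with independent noise of the same size in both groups. The vehicle libraries here varied far more than the treated ones, so that trial does not cover their unevenness. The members and gene lists were chosen with earlier results of these data known. Named genes are the members, per list the 2 largest and the smallest log2 difference among genes averaging 5 TPM or more, and the 2 genes nearest to each member. A gene that this rule would name is not reported here. Same-numbered libraries of the 2 groups did not deviate together (Pearson r across genes -0.0128, 0.0555 and 0.0296), so replicate numbers were not taken to pair them.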

Additional observations from a re-analysis of the deposited data

How the results depend on the processing

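No member passed limma in the deposited values or in any other setting tried except against vehicle 3 alone, where the log2 differences of Fcgr1 (0.81), Fcgr2b (1.55), Fcgr3 (0.78), Fcgr4 (0.44) and Fcer1g (0.37) passed and Syk turned to -0.15. Median-ratio rescaling turned Fcgr4 to -0.03 and Fcer1g to -0.38. Of 108 member values under other settings, 100 kept their direction and their side of the threshold. The ratio of Syk to Fcer1g turned to -0.15 with the length correction and to -0.54 against vehicle 3; the other 3 ratios kept their sign in every setting. Members higher without overlap numbered 5 as deposited, beside 22.6% of all genes. They numbered 2 after median-ratio rescaling (18.4% of all genes), 3 after quantile normalization (18.6%) and 2 after the length and GC correction (16.4%). Against vehicle 3 alone 1 was lower, beside 45.7% of all genes. The cause was not tested.

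Leaving out 1 library in turn gave log2 differences of 0.78 to 1.04 for Fcgr1, 1.74 to 2.92 for Fcgr2b and 0.86 to 1.51 for Fcgr3. The ranges were 0.49 to 0.66 for Fcgr4, 0.19 to 0.30 for Fcer1g and 0.36 to 1.41 for Syk. Without vehicle 3, 6 members were higher without overlap, beside 59.5% of all genes. Without any other library 5 were, beside 23.6% to 27.1% of all genes. Ratio differences ran from -1.41 to -0.87 (Fcgr3 to Fcgr2b), -2.11 to -1.10 (activating chains to Fcgr2b), -0.78 to -0.43 (Fcer1g to activating chains) and 0.12 to 1.34 (Syk to Fcer1g).

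Genes called over the whole table (1) numbered 0 with a pseudocount of 5, with no filter, with a mean of at least 5 TPM and with a replicate block, 2 after median-ratio rescaling, 5 after quantile normalization, 19 after the length correction, 13 after the length and GC correction, 1312 against vehicle 3 alone, and 0 to 722 without 1 library (13 without vehicle 2, 722 without vehicle 3). With the replicate block the log2 difference of Fcgr2b was 2.46 (SE 0.57, adjusted p = 0.415 by limma), and no member was called. Pathway genes higher without overlap (16 of 64, beside 22.6% of all genes) numbered 17 to 51 without 1 library. The 51 came without vehicle 3, beside 59.5% of all genes. Those lower were 2, beside 8.10% of all genes, and the share of all genes is bracketed below. They numbered 6 after quantile normalization (17.3%) or median-ratio rescaling (18.1%). After the length correction (18.7%) and the length and GC correction (18.4%) they numbered 7, and 31 against vehicle 3 alone (45.7%). Without 1 library they numbered 2 to 4, with 4 without vehicle 2 (16.9%). With no counts deposited, what depth allows could not be worked out.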
